A study of Arabidopsis thaliana with 9 samples.

Results

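The comparison described here asks which transcripts differed in Arabidopsis inflorescences when the activity of RGA was induced for 4 h. It sets 3 arrays of the RGA-GR line after dexamethasone (RGA-GR Dex) against 3 arrays of that line after mock treatment (RGA-GR mock), which are 6 of the 9 arrays of the series, and covers all 22746 probe sets that are not array controls. All plants were ga1-3 rga rgl2, a background that makes almost no gibberellin (GA) and lacks 2 of the DELLA proteins. The RGA-GR line also carried RGA joined to the glucocorticoid receptor. The 3 remaining arrays are of nontransgenic ga1-3 rga rgl2 plants after dexamethasone (nontransgenic Dex), with no mock arrays of their own, so an effect of the drug itself cannot be told apart from RGA activity in Dex against mock. The tissue was inflorescence with flowers later than stage 12 left out, collected 4 h after treatment in biologically independent sets numbered 1 to 3, per the labels. The labels used here give neither the promoter of the transgene, nor the number of lines, nor the accession of the plants.

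DELLA proteins restrain growth and flower development by binding transcription factors and other regulators. GA binds the GID1 receptors, the receptor then binds a DELLA protein, and the F-box protein SLY1 marks the DELLA for degradation, so that GA lifts the restraint. A protein joined to the glucocorticoid receptor is held in the cytoplasm until dexamethasone (Dex) frees it to enter the nucleus, which makes the time of its action a matter of adding the drug. In GA-deficient mutants stamen filaments stay short and pollen stops before it matures, and loss of RGA and RGL2 restores part of this.

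The deposited value of a probe set on an array is a ratio. For 15062 probe sets (66.2%) the middle of the 9 values is exactly 1, so that the ratio is to that middle value, and for the other 7684 the median is under 1 and the divisor is not given. All values here are log2 of that ratio, so that 0 is the middle of the 9 arrays for the first kind of probe set only, a difference of 1 is a doubling for both kinds, and levels of different genes cannot be set against each other. A difference is the mean of Dex minus mock over the 3 pairs of arrays with the same number, with the moderated standard error of limma. Whether more RNA per cell or more cells of a type lie behind a difference cannot be told apart in whole inflorescences.

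The targeted gene could not serve as a check of the labels, since no probe set is named RGA, RGL2 or GA1 in the probe table, and those genes are not analysed here. Of the 8 markers listed for floral organs (AP1, AP3, PI, AG, SEP1 to SEP3 and LFY) none is named on the probe table either, and a ratio does not show whether a marker is present. Array medians of the 6 arrays spanned 0.11 on the log2 scale, and 47 of their values sat at the lowest ratio in the table, 0.01. The 25S ribosomal RNA control was higher after Dex in all 3 pairs, at 0.00, 4.15 and -1.01 in mock replicates 1 to 3 and 3.29, 4.71 and 2.93 after Dex. It was -4.12 to -3.58 in the nontransgenic arrays. Its part in the differences below was not tested. The 24 poly-A spike-in controls had medians of -3.73 to -3.23 in replicates 1 and 2 of both RGA-GR groups and of 0.00 and 0.37 in replicate 3, a split that lies between pairs and not within them. In the nontransgenic arrays the medians were 0.88, 0.93 and 1.25, so the split does lie between those arrays and RGA-GR replicates 1 and 2. Its part in the levels of the nontransgenic arrays given below was not tested.

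In limma, paired by replicate number, 0 of 22746 probe sets (0.0%) had an adjusted p under 0.05, and the smallest adjusted p was 0.183. Leaving out replicate 2, which leaves 1 residual degree of freedom, gave 21 probe sets past that threshold, and leaving out either other replicate gave 0. A fit over all 9 arrays with the pairs kept gave 4. What follows is a description of the transcripts with the lowest p-values and of lists of genes, and each adjusted p is from the paired fit of 6 arrays unless another fit is named. The unadjusted p was under 0.05 for 2696 probe sets (11.9%), of which 1800 (7.91%) were higher after Dex and 896 (3.94%) lower, beside 1137 for 5% of all probe sets. The 2696 came to 1582 without replicate 3. Without the pairs the count was 1287 (5.66%), with 745 (3.28%) higher and 542 (2.38%) lower, and the smallest adjusted p was 0.556. Of the 2696, 66.8% were higher, a share that came to 51.8% with array medians subtracted and to 51.7% after quantile normalization. The median difference over all probe sets was 0.07, and it was 0.02 under both of those scalings. No overlap between the 3 Dex and the 3 mock arrays, with Dex higher, was found for 1522 probe sets (6.69%), and with Dex lower for 979 (4.3%). All 3 pairs were higher for 22.1% of probe sets and lower for 13.5%.

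The 3 pairs shared little of their differences across all probe sets, with correlations of 0.03, 0.03 and 0.08, which are across probe sets and not across samples. Over the probe sets with a median ratio of 1 the correlations were 0.13 for pairs 1 and 2, 0.16 for pairs 1 and 3 and 0.33 for pairs 2 and 3. The probe sets with a median under 1 were the noisier kind. Their differences had an SD of 1.11 against 0.42, and 35.5% of them differed at least 2-fold in the mean against 3.44%, whereas only 2.58% against 10.6% were higher and 2.86% against 4.49% lower at an unadjusted p under 0.05.

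**Figure D1:**
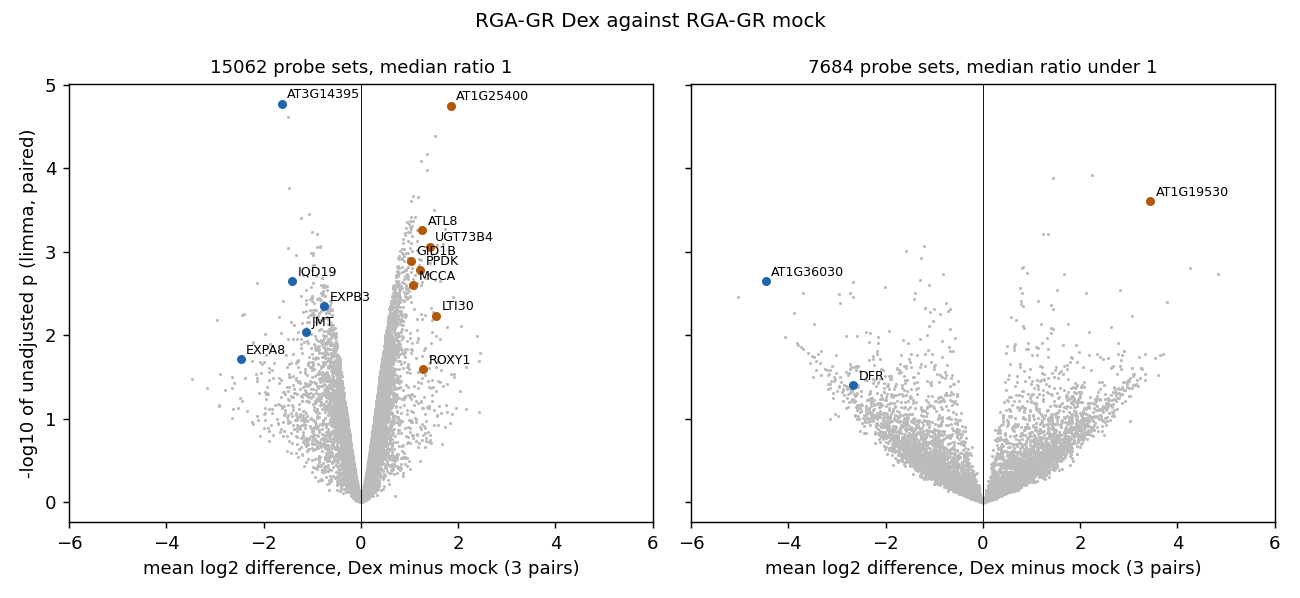
Mean log2 difference of RGA-GR Dex minus RGA-GR mock over 3 pairs (horizontal axis) and -log10 of the unadjusted limma p (vertical axis), with 1 grey point a probe set and genes named in the text in colour. The 15062 probe sets with a median ratio of 1 (left) lie closer to 0 than the 7684 with a median under 1 (right), whose largest differences have modest p-values.

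Genes of GA perception and of DELLA control had higher means after Dex throughout the list: 7 of 7 measured genes, 4 of them at an unadjusted p under 0.05, against 57.0% and 7.91% of all probe sets. All 7 had a median ratio of 1, a kind of probe set of which 10.6% were higher at that p. The median difference over the 7 genes was 0.37, against 0.07 for all probe sets. The 4 came to 2 without the pairs, to 2 with any replicate left out, and to 1 after quantile normalization. The list was written with earlier results of these data known.

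Of the GA receptors, GID1B stood out. GID1B had log2 ratios of 0.00, -0.30 and -0.28 in mock replicates 1, 2 and 3 and of 0.57, 1.08 and 0.84 after Dex, a difference of 1.03 ± 0.19 or 2.04-fold (adjusted p = 0.334). Every Dex array was above every mock array, and above the nontransgenic arrays as well, which ran from -0.20 to 0.28. GID1C, a second receptor, had values of -0.68, 0.00 and 0.62 under mock and 0.41, 0.78 and 0.62 after Dex, with a difference of 0.62 ± 0.23. Its groups overlapped, because mock replicate 3 was as high as Dex replicate 3, and pairs 1 and 2 carried the difference, which was 0.39 without replicate 1 and 0.94 without replicate 3. The third receptor, GID1A, differed by 0.11 ± 0.20, and its pairs pointed in both directions (-0.38, 0.34 and 0.38). That small difference turned to -0.02 after quantile normalization. The nontransgenic arrays lay below all RGA-GR arrays for GID1A, at -1.64 to -0.85.

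Downstream of the receptors, SLY2, an F-box protein related to SLY1, had values of 0.00, 0.14 and -0.28 under mock and of 0.45, 0.30 and 0.70 after Dex. The groups did not overlap, and the difference was 0.53 ± 0.19, or 0.30 without replicate 3. SLY1 itself differed by 0.25 ± 0.17, with pair 1 slightly lower after Dex and the other two pairs higher. SPY and SEC encode sugar transferases that act on DELLA proteins, SPY adding fucose and SEC adding N-acetylglucosamine. SPY had values of -0.03, -0.09 and 0.18 under mock and 0.20, 0.38 and 0.58 after Dex, again with no overlap, and a difference of 0.37 ± 0.15. SEC differed by 0.21 ± 0.15 and its groups overlapped. XERICO, a RING protein gene known as a DELLA target in seedlings, differed by 0.25 ± 0.23 with overlapping groups. Genes of GA synthesis and inactivation are not analysed here, because the probe table names none of those on the lists.

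**Figure D2:**
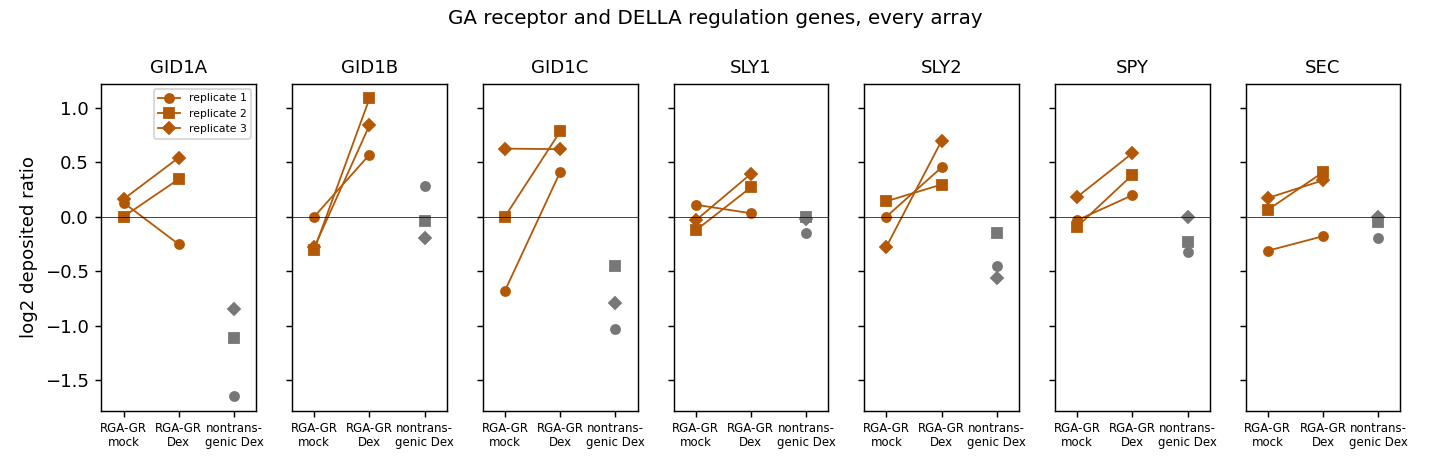
Log2 deposited ratio (vertical axis) of 7 genes of GA perception and DELLA control on every array, with lines joining RGA-GR mock and RGA-GR Dex arrays of the same replicate and grey points for nontransgenic Dex. GID1B, SLY2 and SPY have all 3 Dex arrays above all 3 mock arrays, whereas the lines of GID1A run both ways.

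The 15 probe sets with 1 gene and the lowest p-values among those higher in every pair had differences of 0.90 to 3.44 and adjusted p-values of 0.183 to 0.334. In 11 of the 15 the Dex and mock arrays did not overlap, against 6.69% of all probe sets with Dex higher, a gap built into the choice by p. In 13 every Dex array was also above every nontransgenic array. No share over all probe sets was taken for that count, and the choice rests on the same Dex arrays, so it is no result. Most of these genes carry no name beyond a locus number in the tables used here. At the top, AT1G25400 was at -0.61, -0.69 and 0.00 under mock and 0.96, 1.29 and 2.0 after Dex, a difference of 1.85 ± 0.17 or 3.6-fold (adjusted p = 0.183). AT5G39580 was at 0.24, -0.52 and -0.66 under mock and 1.57, 1.20 and 0.84 after Dex, with a difference of 1.52 ± 0.16 (adjusted p = 0.238). All 3 pairs of both genes differed by similar amounts, and without replicate 2 AT1G25400 had an adjusted p of 0.0342. The largest difference of the 15 was that of AT1G19530, 3.44 ± 0.49, whose mock arrays spread from -3.81 to 1.35 and whose Dex arrays were at 0.95, 3.33 and 3.32, so that mock replicate 2 exceeded Dex replicate 1. The nontransgenic arrays were lower still for that gene, at -4.51 to -3.94. Without replicate 2 it differed by 4.16 with an adjusted p of 2.05e-07.

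Among the named genes with the lowest p-values on the higher side, ATL8, a RING-type ubiquitin ligase gene, was at -0.66, -0.24 and 0.64 under mock and 0.19, 1.03 and 2.32 after Dex and differed by 1.27 ± 0.21. The groups overlapped, but each Dex array was above its own mock array by at least 0.85. UGT73B4, a sugar transferase gene of the UDP-glycosyltransferase family, was at -0.87, -0.04 and -0.81 under mock and 1.23, 1.31 and 0.00 after Dex (1.42 ± 0.25), with no overlap. The nontransgenic arrays spread over -0.80 to 1.82, past the highest Dex array. IYO, which in Arabidopsis starts cell differentiation, was higher by 0.93 ± 0.17, and its 3 Dex arrays lay at 0.94, 1.39 and 0.77 against -0.03, 0.33 and 0.00 under mock. OBE1, a PHD-finger gene needed for meristems, was higher by 0.77 ± 0.18 with no overlap. PSY1R, a receptor for a growth-promoting sulfated peptide, was higher by 0.90 ± 0.18, also with no overlap. These named genes were picked by a rule set after the values were seen.

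Transcription factors of the WRKY family, many of which act in defence and senescence, had higher means after Dex in 7 of 7 measured genes, 3 of them at an unadjusted p under 0.05, against 57.0% and 7.91% of all probe sets. Of the 7, 1 had a median ratio under 1. Among probe sets with a median ratio of 1, 10.6% were higher at that p. The median was 0.58, with pair medians of 0.30, 0.48 and 0.38, and it was 0.34 without replicate 2. The 3 came to 2 without the pairs. WRKY22 was at 0.49, -0.42 and 0.00 under mock and 1.16, 0.35 and 0.70 after Dex, a difference of 0.72 ± 0.15 with overlapping groups and every pair higher. WRKY6 was at -1.20, -1.03 and -0.28 under mock and 0.38, -0.10 and 0.25 after Dex (1.01 ± 0.29), without overlap. WRKY20 differed by 0.39 ± 0.15, also without overlap. The other 4 ranged from 0.13 for ZAP1 to 0.64 for WRKY42, and 2 of them turned negative when a pair was left out, WRKY53 to -0.20 without replicate 1 and WRKY47 to -0.33 without replicate 2. Without replicate 3 WRKY42 was at 0.26 and ZAP1 at 0.02.

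Genes for breaking down branched-chain amino acids in mitochondria, a source of carbon when sugar is short, formed a list that was written after these values were seen. All 8 measured genes had higher means after Dex, 7 of them at an unadjusted p under 0.05, against 57.0% and 7.91% of all probe sets, and the median was 0.58, with pair medians of 0.36, 0.67 and 0.65. All 8 had a median ratio of 1, a kind of probe set of which 10.6% were higher at that p. The 7 came to 1 without the pairs and to 4 or 5 with a replicate left out. MCCA and MCCB encode the subunits of 3-methylcrotonyl-CoA carboxylase in leucine breakdown. MCCA was at -0.39, 0.00 and 0.34 under mock and 0.07, 1.44 and 1.68 after Dex, a difference of 1.08 ± 0.23 or 2.12-fold (adjusted p = 0.334), and MCCB differed by 0.65 ± 0.19. Each Dex array of MCCA was above its own mock array, but Dex replicate 1 lay within the mock range. IVD, the dehydrogenase one step before, differed by 0.55 ± 0.15. ETFQO, ETFBETA and ETFALPHA pass its electrons to the respiratory chain. They differed by 0.82 ± 0.21, 0.50 ± 0.19 and 0.27 ± 0.16. The remaining members were ALDH6B2, of valine breakdown, at 0.60 ± 0.16, and D2HGDH, a hydroxyglutarate dehydrogenase, at 0.39 ± 0.14. The median of the 8 genes was -0.26, 0.00 and 0.10 in the mock arrays, 0.08, 0.81 and 0.72 after Dex and -0.61, -0.58 and -0.76 in the nontransgenic arrays, so the nontransgenic arrays were lowest.

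Single genes of carbon, lipid and protein turnover with low p-values stood beside them. PPDK, pyruvate orthophosphate dikinase, was at -0.17, 0.14 and 0.00 under mock and 0.41, 1.61 and 1.58 after Dex, a difference of 1.21 ± 0.24 without overlap. AKINBETA1, a subunit of the energy-sensing kinase SnRK1, differed by 0.76 ± 0.18. SDP1, the lipase that starts the use of stored oil, differed by 0.72 ± 0.18. In all 3 genes pair 1 had the smallest difference, as it had in all the branched-chain genes but D2HGDH and ETFBETA. ATG8E, a protein of the autophagosome membrane, was higher by 0.85 ± 0.15. Yet the autophagy list as a whole was at 0.08, against 0.07 for all probe sets. Of its 11 genes 1 was higher at an unadjusted p under 0.05, against 7.91% of all probe sets.

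**Figure D3:**
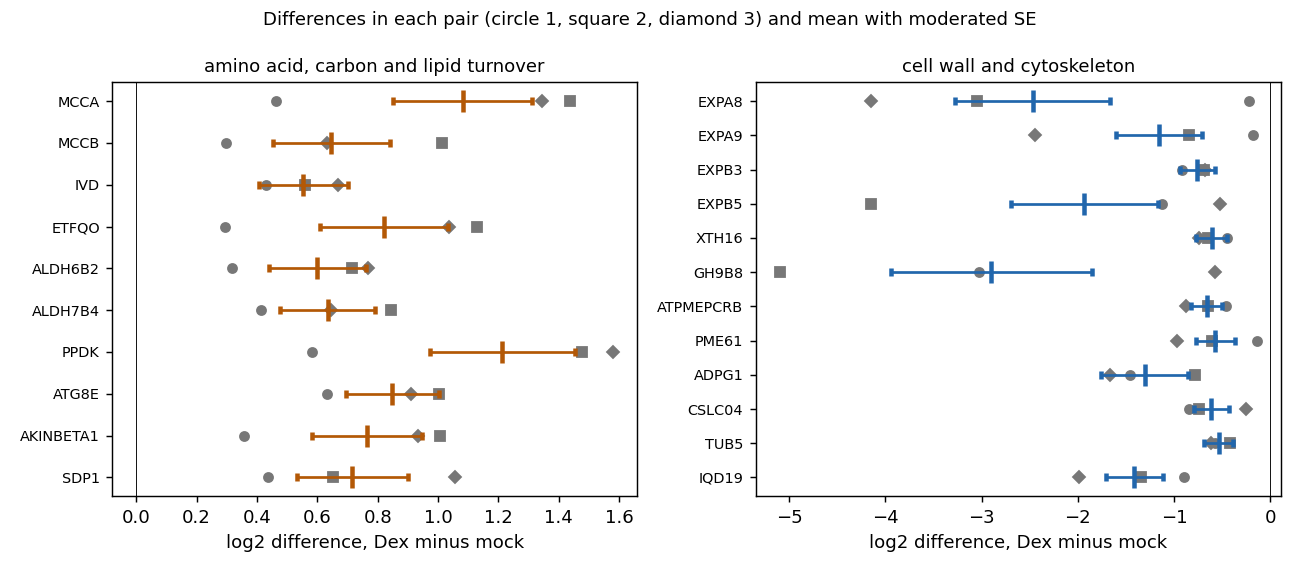
Log2 difference of Dex minus mock (horizontal axis) in pair 1 (circle), pair 2 (square) and pair 3 (diamond) for named genes of metabolism (left) and of cell wall and cytoskeleton (right), with coloured bars for the mean ± the moderated SE over 3 pairs. The genes were chosen after their values were seen, so the side of 0 they lie on is no result, and the pairs lie far apart for EXPA8, EXPB5 and GH9B8.

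On the lower side, the 15 probe sets with 1 gene and the lowest p-values had differences of -0.80 to -4.47, again with adjusted p-values of 0.183 to 0.334. In 11 of 15 the groups did not overlap, against 4.3% of all probe sets with Dex lower, a gap again built into the choice. Every Dex array was below every nontransgenic array in 2 of the 15 and above them in 2, again with no share over all probe sets taken. Array medians were -0.18 to -0.07 in the RGA-GR arrays and -0.29 to -0.24 in the nontransgenic arrays, so the higher and lower genes cannot be compared by these counts. AT3G14395 led with 1.36, 0.44 and 1.26 under mock and -0.40, -1.20 and -0.20 after Dex, a difference of -1.63 ± 0.15 or 3.09-fold lower (adjusted p = 0.183). Its nontransgenic arrays were at -0.29 to 0.04, all below the mock arrays and overlapping one Dex array. Its adjusted p was 0.0342 without replicate 2 and 0.0375 in the fit over all 9 arrays. AT1G36030 had the largest difference of the 15, -4.47 ± 0.93, with Dex arrays at -5.53, -5.15 and -5.73 against -1.29, -0.43 and -1.29 under mock, but its median ratio over the 9 arrays was 0.02, and its nontransgenic arrays were as low as the Dex arrays (-6.64 to -5.53). IQD19, a calmodulin-binding protein of the IQ67-domain family, was at 0.05, 0.39 and 0.66 under mock and -0.84, -0.95 and -1.33 after Dex, a difference of -1.41 ± 0.29. Its groups did not overlap. Over the 15 measured IQ-domain genes 2 were higher and 2 lower at an unadjusted p under 0.05, against 7.91% and 3.94% of all probe sets.

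Expansins, the proteins that loosen cell walls during growth, had lower means after Dex in 14 of 19 measured genes, against 43.0% of all probe sets. At an unadjusted p under 0.05, 4 were lower, against 3.94% of all probe sets, and 0 higher, and the 4 came to 1 without the pairs and to 1 without replicate 1. The median difference was -0.67, or -0.42 without replicate 2, and the pair medians were -0.22, -0.69 and -0.52. EXPA8 was at 0.68, 0.00 and 0.41 under mock and at 0.47, -3.05 and -3.73 after Dex, a difference of -2.47 ± 0.81 that came from replicates 2 and 3, since replicate 1 was nearly the same in both groups. Leaving out a replicate moved it between -3.60 and -1.63. EXPB5 was at 0.73, 0.00 and -0.25 under mock and -0.40, -4.15 and -0.77 after Dex (-1.93 ± 0.77), without overlap and with Dex replicate 2 far below the others. Without replicate 2 it was -0.82. EXPB3 had even pairs, -0.91, -0.69 and -0.68, and a difference of -0.76 ± 0.18, though its groups overlapped. EXPA9 differed by -1.15 ± 0.45, mostly in replicate 3, and by -0.51 without it. Of the 19 expansins 10 had a median ratio under 1, the noisier kind, while these 4 did not.

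Other wall genes had lower means in smaller majorities. In the xyloglucan list 6 of 10 genes were lower, against 43.0% of all probe sets, and the median was -0.04. It was -0.51 without replicate 2 and 0.08 over the genes with a median ratio of 1, of which 2 of 4 were lower. At an unadjusted p under 0.05, 1 gene was lower, against 3.94% of all probe sets, and this came to 0 without the pairs. That gene was XTH16, an enzyme that cuts and rejoins xyloglucan, which differed by -0.61 ± 0.17. CSLC04, a synthase of the xyloglucan backbone, differed by -0.61 ± 0.18. A list of pectin and cellulose enzymes written after the values were seen also holds CSLA, CSLC and CSLD genes. In it 19 of 29 genes were lower, against 43.0% of all probe sets, with a median of -0.21. At an unadjusted p under 0.05, 5 were lower, CSLC04 among them, against 3.94% of all probe sets, and 0 higher. The 5 came to 2 without replicate 1. GH9B8, a glucanase gene, was at -0.13, 0.22 and 0.30 under mock and -3.16, -4.88 and -0.28 after Dex, a difference of -2.90 ± 1.05. All Dex arrays were below the mock arrays, with replicate 3 only just so, and without replicate 2 the difference was -1.80. ATPMEPCRB, a pectin methylesterase, was at 0.98, 0.65 and 0.77 under mock and 0.52, 0.00 and -0.10 after Dex (-0.66 ± 0.16), without overlap and with similar pairs. ADPG1, a polygalacturonase that opens anthers and pods, differed by -1.30 ± 0.45 without overlap. TUB5, a beta-tubulin of the cortical microtubules, differed by -0.53 ± 0.15. Of 7 tubulins 1 was lower at an unadjusted p under 0.05, against 3.94% of all probe sets.

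Of 11 RALF-like peptide genes, secreted signals that act on wall-bound receptor kinases, 10 had lower means, against 43.0% of all probe sets, and 1 was lower at an unadjusted p under 0.05, against 3.94%. The median was -0.38. It was -0.68 without replicate 1 and -0.21 without either of the others, and 7 of 11 genes were lower without replicate 3. RALFL25 was at 0.40, -1.15 and -0.02 under mock and -0.43, -3.27 and -2.10 after Dex (-1.67 ± 0.67). The difference of RALFL26 was -2.91 ± 1.36 (unadjusted p = 0.071 in limma), from 0.91, -1.53 and -1.57 under mock to 0.64, -4.93 and -6.64 after Dex, the last at the lowest ratio in the table. Without replicate 3 it was -1.83, and without replicate 1 -4.23. In both genes replicate 1 was the highest of its group, with nontransgenic arrays at 1.26 to 1.70 for RALFL25 and 0.00 to 0.99 for RALFL26.

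Replicate 1 also had the highest median of its group over markers of late pollen. The late pollen and sperm cell list of 13 genes had a median difference of -0.15, or -0.35 without replicate 1 and -0.29 without replicate 2. In it 5 genes were higher and 8 lower, against 57.0% and 43.0% of all probe sets. At an unadjusted p under 0.05 there were 0, against 11.9% of all probe sets. The median of the list was -0.08, -0.83 and -0.18 in the mock arrays, -0.28, -1.04 and -1.09 after Dex and 0.16, -0.02 and 0.01 in the nontransgenic arrays. MGH3, a histone of the sperm cells, was at 0.42, -1.34 and -1.23 under mock and 0.00, -0.76 and -1.60 after Dex, a difference of -0.07 ± 0.47, and at 0.88 to 1.30 in the nontransgenic arrays. ACT12, a pollen actin, differed by -1.33 ± 0.85 and AGL104, a MADS-box factor of maturing pollen, by -1.54 ± 0.86, neither below an unadjusted p of 0.05. Without replicate 2 they were at -0.29 and -0.35. The part of pollen stage in the differences of RALFL25, RALFL26 and EXPA8 was not tested. Of the tapetum markers ATA27 and SHT were measured, at -0.90 ± 0.43 and -0.08 ± 0.26. CLV3, the one meristem marker measured, differed by -1.86 ± 1.21 with pairs of 0.46, -3.81 and -2.24 (-0.89 without replicate 2), and its median ratio over the 9 arrays was 0.122.

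Counts for genes that pattern young anthers lay near the shares over all probe sets. In 5 of 7 the mean was higher after Dex, against 57.0% of all probe sets. At an unadjusted p under 0.05, 1 was higher, against 7.91%, and this came to 0 without the pairs. The median was 0.39, or 0.23 without replicate 3. ROXY1 and ROXY2 encode glutaredoxins that act together in early anther development. ROXY1 was at -0.81, -2.59 and 0.40 under mock and 0.00, 0.06 and 0.81 after Dex (1.29 ± 0.45), and ROXY2 was at 0.01, -4.11 and -1.24 under mock and 0.00, 0.15 and -0.20 after Dex (1.77 ± 0.87). In both genes a single mock array, replicate 2, lay far below the rest, and ROXY2 hardly differed in replicate 1. Without replicate 2 the difference was 0.60 for ROXY1 and 0.52 for ROXY2. EMS1, the receptor kinase that specifies the tapetum, differed by 0.48 ± 0.28 with all Dex arrays above the mock arrays. SPL, which starts sporogenesis, differed by -0.09 ± 0.20 and AMS, a tapetum bHLH factor, by -0.31 ± 0.20, both with overlapping groups.

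Hormone genes beyond GA differed one by one. JMT, which makes methyl jasmonate from jasmonic acid, was at 0.49, 0.00 and -0.04 under mock and -0.08, -1.54 and -1.29 after Dex, a difference of -1.12 ± 0.31 without overlap, and at 0.64 to 1.40 in the nontransgenic arrays. Of the other jasmonate synthesis genes, OPCL1 was at 0.29 ± 0.21 and DGL, a lipase gene with a median ratio well under 1, at -1.41 ± 1.27. The auxin list held 11 genes with a median of 0.00 and 0 at an unadjusted p under 0.05, against 11.9% of all probe sets. GH3 enzymes join auxin to amino acids and so store or inactivate it. GH3.3 was at 0.23, -0.03 and 0.00 under mock and 0.95, 0.30 and 0.58 after Dex (0.54 ± 0.16), without overlap. WES1, of the same family, differed by 0.40 ± 0.16, whereas GH3.9 differed by -0.48 ± 0.20. GH3.17 had the largest difference, 1.06 ± 0.52, but it came from mock replicate 2 alone, and it was 0.19 without that replicate. ARR15, a cytokinin-induced response regulator, was at -0.22, -0.14 and -1.18 under mock and 0.78, 0.54 and -0.49 after Dex. Its difference of 0.79 ± 0.19 was similar in each pair although the groups overlapped. The median ratio of ARR15 was 0.711, the noisier kind of probe set. In the cytokinin list of 6 genes 3 were higher and 3 lower, against 57.0% and 43.0% of all probe sets, with a median of -0.18. At an unadjusted p under 0.05 only ARR15 was higher and 0 were lower, and without the pairs there were 0 of either. The ethylene factor EIN3 differed by 0.16 ± 0.17.

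Among stress and secondary metabolism genes, LTI30, a cold and drought dehydrin, was at -0.93, -1.45 and -1.91 under mock and 0.44, 0.00 and -0.10 after Dex, a difference of 1.54 ± 0.39 or 2.92-fold (adjusted p = 0.335). The groups did not overlap, and the nontransgenic arrays were higher than both, at 0.50 to 1.23. In the cold and drought list 6 of 8 genes were higher and 3 were higher at an unadjusted p under 0.05, against 57.0% and 7.91% of all probe sets, and the 3 came to 0 without replicate 1 and to 1 without the pairs. All 8 had a median ratio of 1, a kind of probe set of which 10.6% were higher at that p. COR15A, a cold-induced chloroplast protein gene, differed by -0.20 ± 0.22. DFR, the reductase of anthocyanin synthesis, was at -0.66, -0.02 and -0.55 under mock and -2.59, -3.99 and -2.69 after Dex, a difference of -2.67 ± 1.05. No Dex array reached a mock array, and the nontransgenic arrays were far higher at 1.42 to 1.52. The flavonoid list as a whole had 5 genes higher and 5 lower, against 57.0% and 43.0% of all probe sets. AOP1 and AOP3, neighbours at a locus of glucosinolate side-chain synthesis, had similar differences, -1.0 ± 0.23 and -1.0 ± 0.35 (the latter -0.66 without replicate 2), each without overlap. They are a list written after the values were seen. SPCH, the bHLH factor that starts the stomatal lineage, was at 1.07, 0.75 and 0.66 under mock and -0.05, 0.56 and -1.73 after Dex (-1.23 ± 0.38), without overlap. Replicate 2 had the smallest difference of the 3 pairs, and without it the difference was -1.75 with an adjusted p of 0.0293. Without replicate 3 it was -0.66.

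Photosynthesis genes served as markers of green tissue. Of 7 nuclear genes 2 were higher and 5 lower, against 57.0% and 43.0% of all probe sets, with a median of -0.07. At an unadjusted p under 0.05 there were 0, against 11.9% of all probe sets. RCA, rubisco activase, was at 0.00, 0.00 and 0.01 under mock and 0.09, -0.13 and 0.00 after Dex, a difference of -0.02 ± 0.16. The plastid-encoded genes, a set made after the values were seen, were higher in 55 of 69, against 57.0% of all probe sets. At an unadjusted p under 0.05, 7 were higher and 0 lower. The shares were 7.91% and 3.94% over all probe sets and 10.6% and 4.49% over those with a median ratio of 1, so the 7 of 69 are near the share. The median of the 69 genes was -1.06, -0.58 and 0.56 in mock replicates 1 to 3 and -1.27, 0.00 and 0.89 after Dex. The replicates thus stood further apart than the groups. The 7 came to 0 without the pairs and without replicate 3, and to 23 without replicate 1. Seed genes gave no common direction either: of 8 measured, 3 were higher and 5 lower, against 57.0% and 43.0% of all probe sets. At an unadjusted p under 0.05 there was 1 of each, against 7.91% and 3.94% of all probe sets.

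**Figure D4:**
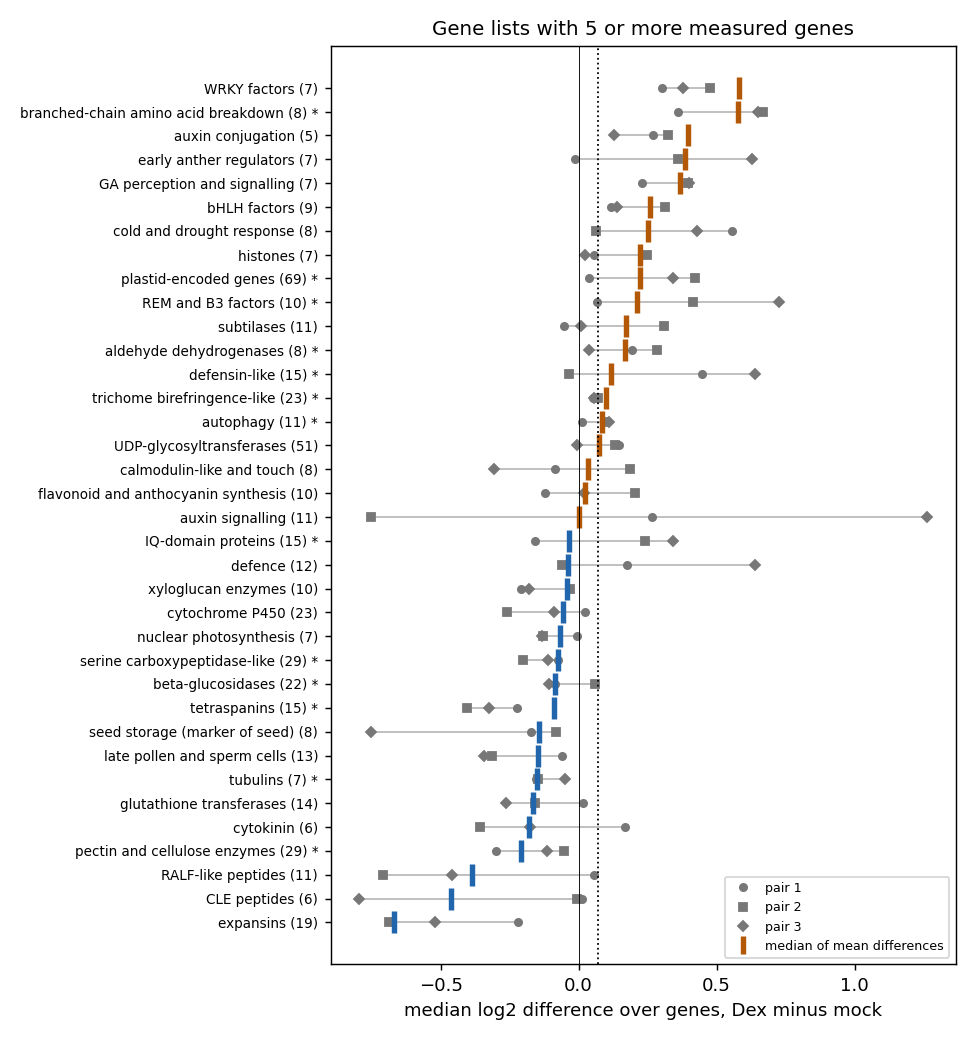
Median log2 difference of Dex minus mock over the genes of each list with at least 5 measured genes (horizontal axis), with grey symbols for the median in each of the 3 pairs, a coloured bar for the median of the genes' mean differences, a dotted line at 0.07 for all probe sets and an asterisk for lists written after the values were seen. The number of genes is in brackets, WRKY factors and branched-chain amino acid breakdown are at the upper end and expansins at the lower end, and the bar can fall outside the symbols because the median is taken anew.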

How the data were processed

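Biotin-labelled total RNA was read on Affymetrix arrays, per the labels' protocols, and GCOS is named without a version or a scaling target in the submitters' processing notes. The authors deposited 1 linear ratio per probe set and array, read as such from the values: the row median is 1 in 15062 of 22746 rows and under 1 in 7684, whose divisor is not given in the sources used here. How dim probe sets were handled is not stated either, and the number of arrays limits the precision. The 64 control rows were left out and examined apart.

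The log2 of the deposited ratio was taken with no offset, filter or rescaling, and fitted with limma 3.58.1 in R 4.3.3 (replicate number as a block, trended eBayes, two-sided p adjusted by Benjamini-Hochberg over 22746 probe sets, threshold 0.05). The fit has 2 residual and 4.70 prior degrees of freedom, and the median SE of a difference was 0.237. It was tested on simulated data. Figures were drawn with matplotlib 3.10.9. Over all probe sets, deviations from the group means correlated between the arrays of a pair at 0.161, 0.0738 and 0.190, against -0.146 to -0.019 for other numbers. Deviations cancel out within a group, so values for other numbers are bound to be lower where those of the pairs are higher. Over probe sets with a row median of 1 the pairs were at 0.460, 0.198 and 0.468. The value of pair 2 over all probe sets is under 0.1. The numbers thus pair the arrays by the rule of the comparison and not from a label, and counts without the block are printed too.

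A single gene is named for 13513 probe sets, more than one for 503, and 8730 are unnamed here. The TAIR10.1 gene table held 13436 of the 13513. Of 61 gene lists, 14 were written after the values were seen, and 8 have no measured gene. The comparison and the other lists were chosen with earlier results of these data known. Named genes are, among probe sets with 1 gene and 1 direction in all 3 pairs, the 15 with the lowest p in each direction, the 8 largest in each direction at an unadjusted p under 0.01 and a row median of 1, up to 4 genes of each list with the lowest p, and all genes of GA perception. Other genes named in the text were picked after their values were seen. The 14 alternatives are given at the end. A list is described by counts and a median, and no set test was used.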

Additional observations from a re-analysis of the deposited data

How the results depend on the processing

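The number of probe sets past an adjusted p of 0.05 was 0 under 12 of the 14 alternatives. The exceptions were the replicate block within the RGA-GR line over 9 arrays, with 4 probe sets, and leaving out a replicate pair, where the count ran from 0 to 21. The count at an unadjusted p under 0.05 was 1287 with no replicate block on 6 arrays and 1791 with no replicate block on 9 arrays, and it ran from 1582 to 2930 with a replicate pair left out. The other 9 settings gave 1804 to 3182. Of the 40 genes named by p or size, 35 to 40 had the same direction under each alternative, where the lower numbers come from settings that leave probe sets out, and 39 to 46 of 46 lists had a median of the same sign. Differences of the 100 genes described changed sign in 11 of 1385 values. After quantile normalization GID1A came to -0.018 and AGL65 to -0.051. With a replicate pair left out GID1A ran from -0.018 to 0.363, AGL65 from -0.085 to 0.171, RCA from -0.068 to 0.039, SPL from -0.318 to 0.109, MGH3 from -0.392 to 0.106, WRKY53 from -0.201 to 0.395 and WRKY47 from -0.327 to 1.06. The cause was not tested. The SE of a difference over 3 pairs had a median of 0.237, and signal over background is not known from a ratio.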

Other observations

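Some gene families with no place in the comparisons above held single genes with low p-values, higher or lower after Dex. UDP-glycosyltransferases, which attach sugars to hormones and defence compounds, had 51 measured genes. Of these, 32 had higher and 19 lower means after Dex, against 57.0% and 43.0% of all probe sets. At an unadjusted p under 0.05, 6 were higher and 1 lower, against 7.91% and 3.94% of all probe sets. The median was 0.07, as over all probe sets, so the family lay near the shares. Calmodulin-like genes split: CML38 differed by 1.14 ± 0.24 and CML41 by -0.64 ± 0.19, each with no overlap between Dex and mock arrays. REM22, a B3-domain gene, was at -0.48, -0.15 and -0.88 under mock and -0.07, 1.03 and 1.25 after Dex, a difference of 1.24 ± 0.31, or 0.79 without replicate 3. Of 15 tetraspanin genes, membrane proteins of plant cells, 9 had lower means, against 43.0% of all probe sets. At an unadjusted p under 0.05, 1 was lower, against 3.94% of all probe sets, and 0 higher. TET3 was at 0.18, -0.55 and 0.19 under mock and -0.79, -1.70 and -1.61 after Dex (-1.31 ± 0.43), with no overlap. Among 29 serine carboxypeptidase-like genes 15 were lower, against 43.0% of all probe sets. At an unadjusted p under 0.05, 2 were lower, against 3.94% of all probe sets, and 0 higher, with scpl20 at -1.08 ± 0.32. BGLU46, a beta-glucosidase gene, had a difference of 1.45 ± 0.35, whereas BGLU40 was at -0.84 ± 0.24. PAP85, a seed storage protein gene of the vicilin kind, was at -0.41, 0.81 and 0.93 under mock and 0.00, 1.75 and 1.82 after Dex (0.75 ± 0.24), and far lower in the nontransgenic arrays, at -5.22 to -4.31. None of these passed the adjusted threshold.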
